A study of Homo sapiens with 6 samples.

Results

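The cluster of C2H2 zinc-finger genes at 19q13.43, the last band of the long arm of chromosome 19, was followed in HAP1 cells and in HELLS KO cells. Its members were 59 genes chosen by a list of symbols, from ZSCAN5A to ZNF446 in chromosomal order, out of 60483 genes in the count table. The expression values played no part in the choice of each gene, although the region was chosen with earlier results of these data known. In GRCh38 the members span 2261.56 kb, with 38 on the + strand and 21 on the - strand.

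HAP1 is a near-haploid human line that grows attached and was derived from a chronic myeloid leukemia line. The HELLS KO line is a single purchased clone of HAP1 with an insertion of 1 base in exon 3 of HELLS. Both lines were grown without any drug, and 3 RNA-seq libraries, described as biological replicates, were made from each. With 1 clone per genotype, the loss of HELLS and any other difference of the clone cannot be told apart.

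C2H2 zinc-finger proteins bind DNA through arrays of fingers, and many of those on chromosome 19 also carry a KRAB domain. KRAB binds TRIM28, which brings in SETDB1 and heterochromatin proteins, and many KRAB zinc-finger proteins silence transposable elements in this way. Proteins named ZSCAN carry a SCAN domain, through which they pair with each other. HELLS is a SNF2-family chromatin remodeler that is required for normal DNA methylation, and its mutation causes a form of ICF syndrome. In HAP1 cells, however, the paper that reported these data found by ELISA no effect of HELLS loss on global DNA methylation. Methylation of single promoters was not measured in the data used here. Several genes of 19q13.43 have promoters rich in CG dinucleotides that are known to become methylated and silent in tumors.

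In the HELLS KO, 7 of the 54 members that could be tested were higher than in HAP1 and 0 were lower. These were ZNF542P, ZNF667, ZNF264, ZIK1, ZNF586, ZNF135 and ZNF329. Of these, 5 were nearly silent in HAP1 cells, with under 1 CPM (counts scaled to the library size after TMM normalization), and reached between 1.41 and 27.1 CPM in the HELLS KO. They lay apart from each other along the cluster, and the nearest tested member on either side of each was not called. The rest of the cluster, 47 members, differed by between -0.87 and 0.94 on the log2 scale and none of them passed the test.

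A gene was called when its p from the quasi-likelihood test of edgeR, adjusted by the method of Benjamini and Hochberg over 17925 genes, was under 0.05 and its log2 fold change was at least 1 in size. By this rule 1.5% of all tested genes were called higher and 0.72% lower, against 7 and 0 of 54 members. The genotypes did not overlap in any library, with the HELLS KO higher, for 9 of the 54 members, against 4.99% of all tested genes. The opposite order was seen for 0 members, against 5.09% of all tested genes. At an unadjusted p under 0.05, 10 of 54 members were higher and 0 lower, against 3.29% and 3.3% of all tested genes. DESeq2 called 8 members higher and 0 lower, where it called 1.71% of all genes with an adjusted p higher and 0.977% lower.

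The promoters printed here are those of ZNF135, ZNF264 and ZNF667. They had the largest fitted changes among called members with at least 1 CPM in the HELLS KO and a listed promoter. That of ZNF584 is shown beside them, since it had the highest HAP1 level per length of the members that were not called. Each sequence runs 5′ to 3′ from 250 bases before to 50 bases after the RefSeq start in GRCh38.p14, in lower case with each CG dinucleotide, the unit of DNA methylation, in capitals. They lie at chr19:58058989-58059288 on the + strand (ZNF135), chr19:57191250-57191549 on the + strand (ZNF264), chr19:56477296-56477595 on the - strand (ZNF667) and chr19:58408399-58408698 on the + strand (ZNF584).
ZNF135: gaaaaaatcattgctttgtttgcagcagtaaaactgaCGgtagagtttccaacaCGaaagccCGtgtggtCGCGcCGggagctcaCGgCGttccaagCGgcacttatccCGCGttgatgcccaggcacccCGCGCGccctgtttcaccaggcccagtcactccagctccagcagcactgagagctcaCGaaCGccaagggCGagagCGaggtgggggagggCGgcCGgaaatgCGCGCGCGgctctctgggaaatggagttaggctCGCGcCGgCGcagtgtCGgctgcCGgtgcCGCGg
ZNF264: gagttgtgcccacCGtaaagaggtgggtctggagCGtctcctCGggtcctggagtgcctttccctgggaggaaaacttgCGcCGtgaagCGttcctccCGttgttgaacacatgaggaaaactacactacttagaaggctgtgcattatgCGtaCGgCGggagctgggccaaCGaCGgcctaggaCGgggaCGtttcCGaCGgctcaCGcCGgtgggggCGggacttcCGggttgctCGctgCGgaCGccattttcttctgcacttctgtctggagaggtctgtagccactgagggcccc
ZNF667: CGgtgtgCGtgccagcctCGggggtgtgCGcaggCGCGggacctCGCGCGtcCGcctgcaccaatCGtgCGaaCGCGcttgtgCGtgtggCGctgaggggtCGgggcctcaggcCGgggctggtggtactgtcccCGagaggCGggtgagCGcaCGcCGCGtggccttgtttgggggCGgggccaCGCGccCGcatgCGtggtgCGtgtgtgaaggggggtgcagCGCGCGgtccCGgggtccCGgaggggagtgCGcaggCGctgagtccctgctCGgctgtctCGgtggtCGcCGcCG
ZNF584: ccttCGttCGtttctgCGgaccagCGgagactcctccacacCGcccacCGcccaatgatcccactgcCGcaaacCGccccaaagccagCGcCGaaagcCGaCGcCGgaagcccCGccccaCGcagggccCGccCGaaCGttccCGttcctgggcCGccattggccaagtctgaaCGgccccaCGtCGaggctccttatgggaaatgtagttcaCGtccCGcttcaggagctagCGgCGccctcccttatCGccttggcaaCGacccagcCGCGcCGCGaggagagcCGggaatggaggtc
The ZNF135 window held 32 CG dinucleotides, that of ZNF264 held 23 and that of ZNF667 held 42. The window of ZNF584, which was active in both lines, held 34. All 4 windows were thus rich in CG, whether or not the gene was called, since the median over 27305 RefSeq promoters was 14.

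Each library held between 13641237 and 24400187 counts, and replicate 3 of both genotypes, which carries a batch label, was the deepest. A count of 3, the most that a count of 0 allows, equals between 0.123 and 0.220 CPM and covers counting error only. HELLS itself had 1444, 1488 and 3671 counts in HAP1, against 1410, 1375 and 2802 in the HELLS KO (log2 fold change -0.24, SE 0.18, adjusted p = 1.0 by edgeR), so the level of its RNA did not mark the KO, and its insertion was not checked here. Of 7 haematopoietic markers, PTPRC, SPI1, ITGAM and MPO had at most 3 counts in every library, and the summed level of the list was 1.05 to 1.45 CPM in HAP1 and 0.84 to 1.51 CPM in the HELLS KO. Of 5 epithelial markers KRT5 had at most 3 counts in every library, and the summed level was 41.9 to 58.4 CPM in HAP1 and 19.7 to 25.3 CPM in the HELLS KO, with EPCAM called lower. The summed level of 7 fibroblast or chondrocyte markers was 308 to 493 CPM in HAP1 and 328 to 446 CPM in the HELLS KO, with LUM and DCN at most at 3 counts in every library. Of 5 testis markers, PRM1, PRM2, TNP1 and DDX4 had at most 3 counts in every library, and the list summed to 1.05 to 3.13 CPM in HAP1 and 2.17 to 2.68 CPM in the HELLS KO. The sum of the epithelial list moved with genotype, mainly through GATA3, and its part in the results below was not tested. In bulk RNA, a change in the number of expressing cells and in RNA per cell cannot be told apart.

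**Figure D1:**
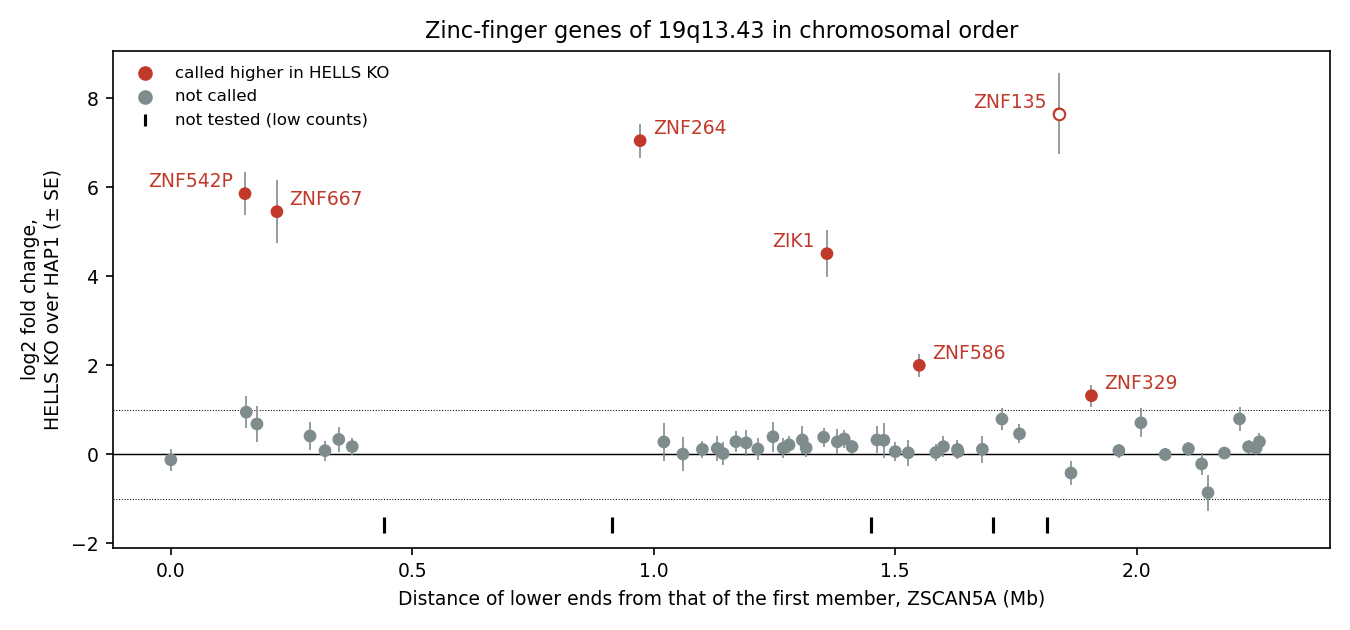
Log2 fold change (HELLS KO over HAP1, points with SE bars) of the 54 tested members against the distance in Mb of their lower ends from that of ZSCAN5A, with dotted lines at 1 and -1 and ticks for the 5 members that were not tested. The 7 called members (red) stand apart between 1.31 and 7.65 and are scattered among uncalled members (gray) near 0, and the open point of ZNF135 is a fitted value against 3 HAP1 libraries at 0 counts.

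ZNF264 gained the most RNA of the members that were close to silent in HAP1. This KRAB zinc-finger gene (ENSG00000083844, chr19:57191500-57222846 on the + strand) had 4, 4 and 2 counts in HAP1 replicates 1 to 3, against 334, 399 and 739 counts in the HELLS KO. All 3 HELLS KO libraries were far above all 3 HAP1 libraries. The mean level rose from 0.219 ± 0.117 CPM (SD, n = 3) to 27.1 ± 3.77 CPM, or 124-fold, with a log2 fold change of 7.04 (SE 0.38, edgeR adjusted p = 2.3e-04). The ratio of the summed counts, set against the library totals, was 144, with an exact 95% interval from 77.8 to 300 that covers counting error only.

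ZNF542P is annotated as a transcribed unprocessed pseudogene of this family and was the other member that passed 20 CPM from a start below 1 CPM. It lies at chr19:56373250-56377972 on the + strand (ENSG00000240225). It had 9, 1 and 11 counts in HAP1, against 320, 279 and 700 in the HELLS KO, with no overlap. Its mean level was 0.388 ± 0.287 CPM in HAP1 and 23.4 ± 4.77 CPM in the HELLS KO, a 60.4-fold rise (log2 fold change 5.85, SE 0.48, edgeR adjusted p = 0.0015). Of its transcript sequence, 0.236% was shared with another gene in stretches of 31 bases. A longer annotated record of the same symbol was left out of this comparison, so sharing with it was not counted. No other member had such an exclusion.

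ZIK1 encodes a zinc-finger protein that was named for its interaction with hnRNP K. It lies at chr19:57578456-57593890 on the + strand (ENSG00000171649). Its counts were 10, 2 and 19 in HAP1 and 159, 139 and 453 in the HELLS KO. The lowest HELLS KO library was at 9.73 CPM and the highest HAP1 library at 0.792 CPM. The mean rose from 0.547 ± 0.350 CPM to 13.1 ± 4.82 CPM, a 23.9-fold change (log2 fold change 4.50, SE 0.52, edgeR adjusted p = 0.0063).

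ZNF667, whose rodent counterpart Mipu1 was described in heart muscle, is a KRAB zinc-finger gene at chr19:56439325-56478065 on the - strand (ENSG00000198046). It had 0, 5 and 2 counts in HAP1, against 100, 65 and 184 in the HELLS KO. The groups did not overlap, and HAP1 replicate 2 held most of the few HAP1 counts. The mean rose from 0.149 ± 0.191 CPM to 6.33 ± 1.58 CPM (log2 fold change 5.45, SE 0.70, edgeR adjusted p = 0.0090). With so few HAP1 counts the size of the change was loose, since the ratio of the summed counts was 48.6 with an exact 95% interval from 23.4 to 122. Without HAP1 replicate 2, the log2 fold change was 6.78 (edgeR adjusted p = 0.0063).

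ZNF135 (ENSG00000176293, chr19:58059239-58086310 on the + strand) was the one called member with 0 counts in all 3 HAP1 libraries. It had 16, 17 and 47 counts in the HELLS KO, or 1.41 ± 0.456 CPM (edgeR adjusted p = 0.018). This mean is 7.61-fold above the mean floor of 3 counts per HAP1 library, a figure that leaves out the spread of the HELLS KO libraries. The call was lost when any of the 3 HELLS KO libraries was left out, with an adjusted p of at most 0.107. Its exons overlap those of ZSCAN18 on the other strand over 32.6% of their length, and the strand setting of the counting is not given in the sources used here. ZSCAN18 did not move the same way: it had 125, 135 and 135 counts in HAP1, against 89, 92 and 132 in the HELLS KO (log2 fold change -0.43, SE 0.26, adjusted p = 1.0).

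The other 2 called members were already active in HAP1 and rose less. ZNF586 (ENSG00000083828, chr19:57769655-57819939 on the + strand) had 51, 46 and 122 counts in HAP1, against 208, 204 and 478 in the HELLS KO. Its mean rose from 4.01 ± 0.943 CPM to 16.1 ± 3.08 CPM, or 4.01-fold (log2 fold change 1.99, SE 0.26, edgeR adjusted p = 0.0089). The highest HAP1 library was at 5.09 CPM and the lowest HELLS KO library at 14.3 CPM. ZNF552, which lies on the other strand inside the span of ZNF586, had 360, 360 and 855 counts against 429, 381 and 807 (log2 fold change 0.03, SE 0.19, adjusted p = 1.0).

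ZNF329 (ENSG00000181894, chr19:58126248-58155110 on the - strand) showed the smallest of the called changes. It had 120, 140 and 354 counts in HAP1, against 355, 383 and 778 in the HELLS KO. Its mean was 11.1 ± 3.26 CPM against 27.7 ± 3.86 CPM, a 2.49-fold difference (log2 fold change 1.31, SE 0.25, edgeR adjusted p = 0.042). The genotypes did not overlap, with HAP1 at most at 14.8 CPM and the HELLS KO at least at 24.4 CPM. Leaving out HAP1 replicate 1, HAP1 replicate 2 or any 1 HELLS KO library ended the call, with an adjusted p of at most 0.176.

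Of the 59 members, 5 had counts too low for the test. ZNF835 (ENSG00000127903) had 0 counts in all 3 HAP1 libraries and 11, 6 and 14 in the HELLS KO. The HELLS KO mean was 3.16-fold above the mean floor of 3 counts per HAP1 library, a figure that leaves out the spread of the HELLS KO libraries. DESeq2, which tested it, called it higher with an adjusted p = 0.012. ZNF418 had 0, 6 and 14 counts in HAP1, against 4, 10 and 28 in the HELLS KO, and these values overlap. ZIM3, whose strong KRAB domain is used in CRISPR interference, and ZSCAN1 had 0 counts in every library. ZSCAN4, a gene of the early embryo linked to telomere elongation, had 2 counts in HELLS KO replicate 3 and 0 in the rest. ZIM3 and ZSCAN1 were thus not detected in either genotype at this depth, and ZSCAN4 was within the 3 counts that a count of 0 allows.

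Of the 10 members with a HAP1 mean under 1 CPM, 5 were called higher, and the other 5 are those that could not be tested. These 5 called members passed the filter on low counts through their HELLS KO libraries, so their number is a description only. Of the 49 members at 1 CPM or more, 2 were called higher. The lowest of these 49 in HAP1 that was not called was ZNF154, a gene known for promoter methylation in several tumor types. ZNF154 was at 1.05, 1.82 and 2.71 CPM in HAP1 and at 2.34, 2.03 and 2.63 CPM in the HELLS KO (log2 fold change 0.31, SE 0.39, adjusted p = 1.0), with the genotypes overlapping.

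On the scale of FPKM, which divides by gene length and so allows genes to be compared, the members with the highest mean levels were ZNF584, ZNF134 and ZNF211. ZNF584 was at 12.6, 12.2 and 10.8 FPKM in HAP1 and at 12.3, 12.2 and 11.5 FPKM in the HELLS KO. ZNF134 was at 8.95, 8.19 and 12.9 FPKM in HAP1 and at 11.03, 12.2 and 14.7 FPKM in the HELLS KO. ZNF211 was at 9.93, 9.34 and 11.8 FPKM in HAP1 and at 10.8, 11.4 and 12.6 FPKM in the HELLS KO. The genotypes overlapped for all 3, and the order of these genes rests on differences within their spread.

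The called members did not become the most abundant of the cluster. Their mean levels in the HELLS KO were between 0.216 and 6.32 FPKM with a median of 2.45, from a median of 0.0816 in HAP1. The 47 uncalled members had a median of 3.81 FPKM in HAP1 and 3.95 in the HELLS KO. Of the uncalled members, 30 were at or below the highest called member in the HELLS KO. Summed over the 7 called members, the level was 13.6, 14.4 and 21.3 CPM in HAP1 and 103, 104 and 139 CPM in the HELLS KO, while the uncalled members summed to 961, 954 and 1296 CPM and to 1082, 1171 and 1376 CPM.

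**Figure D2:**
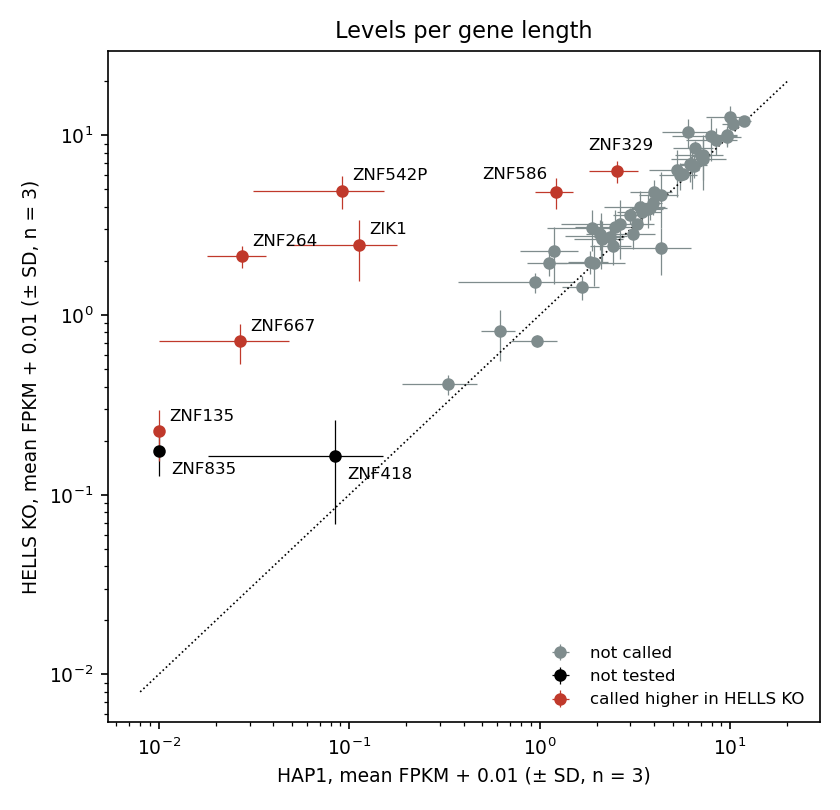
Mean FPKM + 0.01 in the HELLS KO against HAP1 (both axes log, bars SD, n = 3) for the members in the FPKM table, with the dotted line at equal levels. Called members (red) start below the uncalled members (gray), except ZNF586 and ZNF329, and end inside or below the range of the uncalled ones, at 0.216 to 6.32 FPKM in the HELLS KO.

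Among the 47 uncalled members, the log2 fold change was above 0 for 42 and below 0 for 5, and 41 lay within 0.5 of 0. Their median was 0.16, and their SE in the main fit, which has no replicate block, ranged from 0.13 to 0.43. Changes of the median size could thus not be resolved for single genes in that fit. The replicate block gave a smaller SE for each of them, and what passed with it is given below. Over all 54 tested members the median was 0.19 and 90.7% were above 0, against a median of 0.006 and 52.0% over all tested genes. The count of uncalled members with a higher CPM in the HELLS KO was 34 in replicate 1, 41 in replicate 2 and 33 in replicate 3, the labelled batch, where 50.3%, 52.6% and 44.6% of all tested genes were higher. Replicate 3 had the highest sums of members in both genotypes. With replicates 1 and 2 only, 48 of 54 tested members were above 0 and the median was 0.28, and with a batch term for replicate 3 it was 49 of 54 and 0.20. Single libraries moved the median more. With 1 library left out it ran from 0.09, with 35 of 54 above 0, without HELLS KO replicate 3, to 0.41, with 50 of 54 above 0, without HAP1 replicate 3. It was 0.15 and 0.14 without HAP1 replicates 1 and 2, and 0.31 and 0.27 without HELLS KO replicates 1 and 2.

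The largest uncalled increase was that of ZNF582, a tumor-methylated gene. ZNF582 was at 2.88, 3.56 and 5.59 CPM in HAP1 and at 7.22, 5.39 and 10.6 CPM in the HELLS KO, where HAP1 replicate 3 exceeded HELLS KO replicate 2 (log2 fold change 0.94, SE 0.36, edgeR adjusted p = 0.57). ZNF256 and ZNF132 did not overlap between genotypes but were not called. ZNF256 was at 11.5, 10.8 and 17.6 CPM against 18.2, 26.5 and 24.4 CPM (log2 fold change 0.79, SE 0.25, edgeR adjusted p = 0.35). ZNF132, silenced by methylation in prostate cancer, was at 3.73, 2.98 and 4.84 CPM against 5.50, 7.35 and 7.23 CPM (log2 fold change 0.79, SE 0.27, edgeR adjusted p = 0.43).

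With the replicate number as a block in the fit, ZNF582, ZNF256 and ZNF544 passed the adjusted p but not the fold. Their adjusted p values were then 0.048, 0.048 and 0.027, with log2 fold changes of 0.95, 0.79 and 0.74. ZNF583 had 72, 66 and 317 counts in HAP1, against 164, 169 and 344 in the HELLS KO (log2 fold change 0.68, SE 0.40, adjusted p = 1.0). HAP1 replicate 3 stood above the other HAP1 libraries of this gene, and without it ZNF583 was called higher with an adjusted p = 0.031. The lowest value of the cluster was that of ZNF837, at 10.2, 12.4 and 4.67 CPM in HAP1 and 6.60, 4.55 and 3.78 CPM in the HELLS KO (log2 fold change -0.87, SE 0.40, adjusted p = 0.88), with the genotypes overlapping.

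The 4 members named here for a described role in silencing, ZNF274, ZNF417, ZNF587 and ZNF304, were not called. They do not stand for all such genes, since ZNF264 and ZNF667, both KRAB zinc-finger genes, were called higher. ZNF274, which binds the ends of other zinc-finger genes and brings SETDB1 to them, was at 51.3, 50.4 and 61.4 CPM in HAP1 and 50.04, 55.6 and 66.7 CPM in the HELLS KO (log2 fold change 0.08, SE 0.16). The related genes ZNF417 and ZNF587, whose proteins repress endogenous retroviruses of the HERV-K group, had log2 fold changes of 0.11 (SE 0.30) and 0.06 (SE 0.15). They share 49.5% and 50.5% of their sequence with other genes in stretches of 31 bases, counted on both strands. The largest share of ZNF417 with a member was 40.2%, with ZNF587, so its reads could have been discarded or split. That of ZNF587 was 32.3%, with ZNF814, and 33.2% of its exonic length overlaps genes on the other strand. Such overlap is the same stretch of the genome, and whether reads of ZNF587 were discarded or split was not tested. ZNF304, a corepressor-recruiting factor described in colorectal cancer cells, had a log2 fold change of 0.13 (SE 0.27). The genotypes overlapped for each of these 4 genes.

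ZNF471 and ZNF671, also known for promoter methylation in tumors, were not called. The genes named here for this trait are not a full list of such members. Whether called and uncalled members differ in it was not tested. ZNF471 was at 3.16, 4.58 and 4.79 CPM in HAP1 and 3.57, 6.09 and 6.94 CPM in the HELLS KO (log2 fold change 0.41, SE 0.32). ZNF671 was at 11.8, 12 and 17.2 CPM in HAP1 and 12.4, 13.9 and 16.4 CPM in the HELLS KO (log2 fold change 0.05, SE 0.22). Both had an edgeR adjusted p of 1.0 and were expressed in HAP1, and the genotypes overlapped.

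The called members were spread along the cluster. No 2 of them were next to each other in the order of members, and the 5′ starts of successive called members were 95.9 to 713 kb apart. In windows of 0.5 Mb from 56 to 58.5 Mb, the number of called members was 2 of 5, 0 of 5, 1 of 13, 2 of 21 and 2 of 15. The nearest tested members on each side were not called in any case. Measured between lower ends, the closest was ZNF582, 2.596 kb from ZNF542P, with a log2 fold change of 0.94 against 5.85. Measured between 5′ starts, ZNF416 lay closer to ZIK1, at 455 bp.

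The pair ZIK1 and ZNF416 start head to head in the GENCODE annotation, with starts 455 bp apart and the genes overlapping between them. The exons of ZNF416 overlap the other strand over 9.43% of their length and those of ZIK1 over 4.47%. With the strand setting unknown, sharing of reads between them was not tested. ZNF416 was at 14.8, 14.4 and 22.0 CPM in HAP1 and 20.8, 21.5 and 24.4 CPM in the HELLS KO (log2 fold change 0.38, SE 0.21, adjusted p = 1.0). HAP1 replicate 3 exceeded the lower 2 HELLS KO libraries of ZNF416. Within each of the 3 numbered pairs ZNF416 was higher in the HELLS KO, and with the replicate block its adjusted p was 0.26. RefSeq places the start of ZIK1 further downstream, inside the gene as GENCODE draws it.

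ZNF667 differed from this pair in that its divergent partner rose with it. ZNF667-AS1 (ENSG00000166770), a long noncoding RNA whose start lies 815 bp from that of ZNF667, had 2, 2 and 1 counts in HAP1, against 174, 161 and 294 in the HELLS KO. The groups did not overlap (log2 fold change 6.80, SE 0.39, edgeR adjusted p = 2.5e-04), and the ratio of summed counts was 123 with an exact 95% interval from 52.3 to 379. The exons of ZNF667 overlap the other strand over 1.54% of their length. Of the 7 tested head-to-head partners that are no members, ZNF667-AS1 was the 1 called.

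Other annotated genes in the region or within 1 Mb of it were mostly not called, with 3 higher and 0 lower of 68 tested. These were ZNF667-AS1, ZSCAN5B and AURKC. ZSCAN5B, a paralog of ZSCAN5A, had 4, 3 and 5 counts in HAP1, against 22, 30 and 66 in the HELLS KO (log2 fold change 3.15, SE 0.43, edgeR adjusted p = 0.011). Its call was lost in 3 of the 6 fits with 1 library left out, with an edgeR adjusted p of at most 0.0708. ZSCAN5A itself had 297, 284 and 820 counts in HAP1, against 312, 288 and 674 in the HELLS KO (log2 fold change -0.13, SE 0.25, adjusted p = 1.0).

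AURKC, a kinase of meiosis in the germ line, lies between ZNF264 and ZNF805. It had 0, 0 and 1 counts in HAP1, against 82, 83 and 181 in the HELLS KO (edgeR adjusted p = 8.3e-04), a ratio of 337 with an exact 95% interval from 60.2 to 13366. Its neighbor on the other side, ZNF805, had 86, 50 and 254 counts in HAP1, against 81, 110 and 276 in the HELLS KO (log2 fold change 0.27, SE 0.43, adjusted p = 1.0), with overlap. Thus ZNF264 and AURKC were called and ZNF805 was not. The imprinted genes PEG3, ZIM2, MIMT1 and USP29, which lie in the gap between ZNF835 and ZIM3, had at most 2 counts in any library.

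The tested genes of KRAB corepressors, heterochromatin and DNA methylation were not called in either direction. Of 31 such genes listed, 30 were tested by edgeR, and 0 were called by edgeR or DESeq2 and 0 had an unadjusted p under 0.05. The log2 fold changes of those tested ran from -0.16 to 0.24. The gene that edgeR did not test was DNMT3L, a cofactor of DNA methylation in germ cells, which had 4, 7 and 7 counts in HAP1, against 0, 2 and 2 in the HELLS KO. Its genotypes did not overlap, and the ratio of the summed counts was 0.217 with an exact 95% interval from 0.0534 to 0.658 for counting error. TRIM28, which lies just past the cluster, had a mean of 305 CPM in HAP1 and 300.2 CPM in the HELLS KO (log2 fold change -0.02, SE 0.21). SETDB1 had log2 fold change -0.04 (SE 0.16), DNMT1 -0.03 (SE 0.12) and DNMT3B -0.10 (SE 0.13).

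The share of members called may be set beside zinc-finger genes elsewhere, without a test. In the 19q13.43 cluster 13.0% of tested members were called higher (7 of 54), with the pseudogene ZNF542P among the 7. Of the coding zinc-finger genes of chromosome 19 that are no members, 15.6% were (29 of 186, with 0 lower), and ZSCAN5B beside the cluster is 1 of them. Of those on other chromosomes 4.41% were (12 of 272, with 2 lower), and the median log2 fold change was 0.19, 0.12 and 0.03 in the 3 sets. The cluster thus had about the share of the other chromosome 19 genes, and no difference between the sets was tested.

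Promoter CG content was compared as a description, since all genes of the cluster come from the same libraries. RefSeq promoter windows of 300 bases were found for 52 of the 59 members, and their median was 22.5 CG dinucleotides against 14 over all listed promoters. The observed over expected ratio of CG had a median of 0.825 in members and 0.580 in all promoters. The 6 called members with a window had 20 to 42 CG dinucleotides, with a median of 25.5. The 42 uncalled members with one had 11 to 36, with a median of 21.5, so the ranges overlapped. ZSCAN1, at 0 counts in every library, had 42 CG dinucleotides, as many as ZNF667, while ZSCAN4 had 2.

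**Figure D3:**
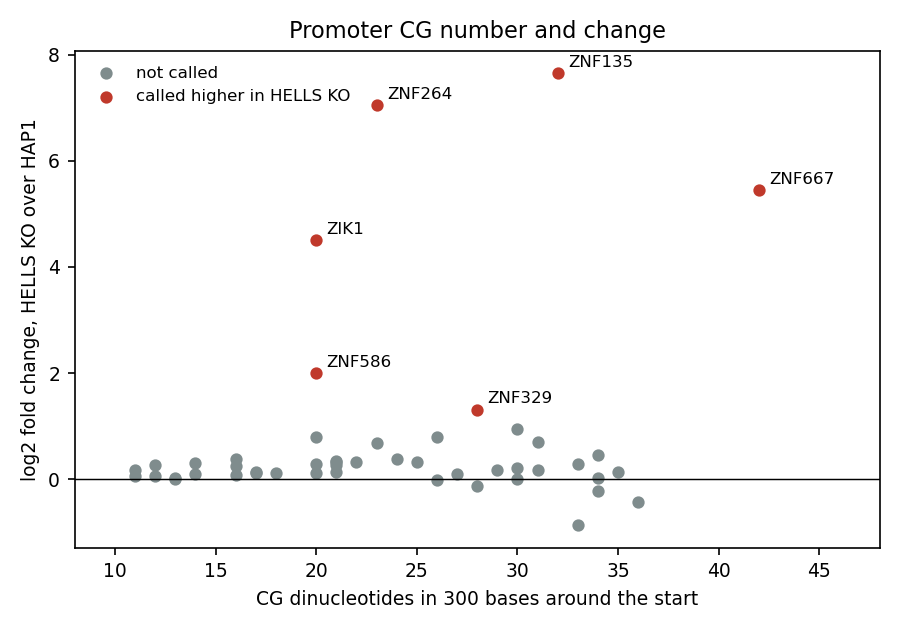
Log2 fold change (HELLS KO over HAP1) against the number of CG dinucleotides in the 300 bases around the RefSeq start, for the tested members with a listed promoter. The 6 called members (red) have 20 to 42 CG dinucleotides, and uncalled members (gray), at 11 to 36, overlap this range.

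Sequence shared with genes elsewhere can limit how well single members are counted, because reads of low mapping quality were removed by the authors. The shares given here count both strands and also include genes that overlap a member at the same place. For such overlaps the limit is how reads were assigned to genes. The median member shares 11.2% of its stretches of 31 bases with another gene, and 11 members share over 30%. Among called members the share was 4.48% in ZNF667, 7.13% in ZIK1, 9.86% in ZNF264, 11.9% in ZNF329 and 15.4% in ZNF586. In ZNF542P it was 0.236%, with the longer record of its symbol left out. For ZNF135 the share was larger. It was 39.8% in ZNF135, most of it through the overlap with ZSCAN18 described above. The highest share of the cluster, 56.2%, was that of ZNF446, which was not called (log2 fold change 0.28, SE 0.20). Its exons overlap other genes over 29.8% of their length on the same strand and 32.3% on the other strand.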

How the data were processed

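Total RNA of HAP1 and HELLS KO cells was made into stranded libraries and sequenced as read pairs. Per the labels and the methods, the authors aligned reads to GRCh38 with STAR 2.7.3a, removed duplicates and reads of low mapping quality, and deposited counts per gene from featureCounts 2.0.6 and a table of FPKM, made from counts by the authors. The annotation release and strand setting are not given in the sources used here. The FPKM table held 24956 genes, those with over 10 counts in all. IDs were matched to GENCODE 44 (56321 of 60483).

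In R 4.3.3, genes were kept by filterByExpr with the genotype as group, scaled by TMM and tested by glmQLFit and glmQLFTest of edgeR 4.0.16, with Benjamini-Hochberg adjustment over 17925 genes. SE was derived from the fold change and F. Levels are CPM after TMM, and exact intervals are Clopper-Pearson on summed counts. A count of 0 was given a floor of 3 counts. Replicates 1 to 3 carry the same numbers in both genotypes, and the deviations from the group means correlated at 0.42, 0.20 and 0.78, each above 0.1, so the numbers were taken as pairs. A batch label is given for replicate 3 alone, and HAP1 replicate 2 correlated with HELLS KO replicate 1 at 0.59 and HAP1 replicate 1 with HELLS KO replicate 2 at 0.33, so how replicates 1 and 2 pair is unclear. The alternatives were DESeq2 1.42.0, RLE normalization, no filter, at least 10 counts in every library, the replicate block, a batch term, each library left out, replicates 1 and 2 only, and no fold cut-off. The edgeR fit, the DESeq2 fit and the fit with the replicate block were tested on simulated data, and the other steps were not.

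The members and lists were chosen with earlier results of these data known. Named were all called members, those with at most 3 counts in every library of a genotype, the 3 of highest FPKM, 12 of known role, called neighbors and partners, TRIM28 and PEG3. Other genes, among them ZNF256, ZNF544, ZNF583, ZNF837, ZSCAN18, ZNF552, ZNF416, ZNF805 and ZNF446, were named after their values were seen. Promoters were taken from RefSeq (GRCh38.p14) and were identical to the genome for all 52 matched members. The insertion in HELLS was not analyzed here.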

Additional observations from a re-analysis of the deposited data

How the results depend on the processing

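The number of members called higher was 7 with RLE normalization, the replicate block, the batch term, replicates 1 and 2 only, and no fold cut-off, and 8 with DESeq2 or no filter, where ZNF835 was added to the same 7. It ranged from 5 to 8 when 1 library was left out. The calls lost were those of ZNF135 (without any HELLS KO library, and with replicates 1 and 2 only, adjusted p up to 0.107) and ZNF329 (5 libraries and the filter of 10 counts, adjusted p up to 0.176), and ZNF583 was gained without HAP1 replicate 3 and with replicates 1 and 2 only. ZNF264, ZNF542P, ZIK1, ZNF667 and ZNF586 kept their call in every alternative that tested them. With 1 library left out, the edgeR adjusted p rose to 0.048 for ZNF667 and 0.049 for ZNF586, close to the cut-off of 0.05. With at least 10 counts in every library, 1 member (ZNF586) was called higher: the filter removes the 5 called members under 1 CPM in HAP1, and ZNF329 was tested there with a log2 fold change of 1.32 and an adjusted p of 0.13. The number of members called lower was 0 in all alternatives. No fold change of a called member reversed. The log2 fold change moved by over 1.5 times in fold for ZNF667 (6.78 without HAP1 replicate 2), ZNF264 (6.41 with replicates 1 and 2 only) and ZNF135 (7.02 with replicates 1 and 2 only, 7.01 with DESeq2).

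Over all genes, 269 were called higher and 129 lower. The count was 428 and 245 with DESeq2, 415 and 200 with no filter, and 29 and 48 under the filter of 10 counts. Lower calls were 267 with the replicate block, 285 with the batch term and 219 with replicates 1 and 2 only. The block changed no call among members. With 1 library left out, between 112 and 273 genes were called higher and between 40 and 176 lower. The 41 other zinc-finger genes called higher became 1 with at least 10 counts in every library and 22 to 44 with 1 library left out, and neighboring genes and head-to-head partners both became 0 under that filter. The cause was not tested for the other settings. Depth limits the 5 members that could not be tested, and no alternative changes the single clone per genotype.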
